A study of Mus musculus with 3 samples.

Results

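Capillary endothelial cells were 660 of the 16838 single-cell barcodes kept from 3 RNA libraries of mouse inguinal white fat. A barcode stands for 1 droplet and, in most cases, 1 cell. It was kept with at least 500 detected genes and at most 15% of its UMIs (unique molecular identifiers, each marking 1 captured RNA molecule) from mitochondrial genes. It was called capillary endothelial when the summed UMIs of Pecam1, Cdh5, Egfl7 and Cldn5 reached 2, those of Gpihbp1, Rbp7 and Btnl9 reached 3, Ptprc was at 0, and Selp, Vwf, Mmrn1, Prox1 and Ccl21a together held at most 1. These 13 genes chose the members, so their levels are given as a description.

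Capillaries are where blood and fat tissue exchange lipid, glucose, gases and hormones. Their endothelium carries GPIHBP1, which holds lipoprotein lipase at the vessel wall, and takes up the released fatty acids through CD36 and binding proteins such as FABP4 and FABP5. It also senses flow, presents antigen, responds to interferon, lays down the basement membrane it shares with pericytes, and sends growth and guidance signals to neighbouring cells.

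The mice were C57BL/6, and the libraries were 10x Chromium 3' v3 libraries of the stromal vascular fraction, which holds the vascular, stromal and immune cells of fat and no intact adipocytes, freed with an enzymatic dissociation kit. The cold library came from mice kept at 4 C for 3 days. The CL library came from mice given CL 316,243, a drug that activates β3-adrenergic receptors, at 1 mg/kg intraperitoneally for 3 days. The saline library came from mice given saline, with no duration in their own label. There was 1 library per group, and the labels state neither how many animals made up a library nor their age or sex, nor whether mice in the cold also received injections.

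With 1 library per group no test between treatments was possible, and a difference between libraries cannot be told apart from a difference between the animals or preparations behind them. Levels are counts per 1000000 UMIs (CPM) of the UMIs summed over the capillary barcodes of a library. Ratios are log2 ratios of CPM. The 95% intervals in brackets after a value are exact and cover counting error only. The cold and CL ratios against saline share the saline library, so their likeness to each other is no result. The CL over cold ratio is given beside some of them.

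The cold, CL and saline libraries held 5050, 7943 and 7674 barcodes with 19899223, 29323106 and 25875379 UMIs, of which 3862, 6705 and 6271 barcodes were kept. The capillary barcodes numbered 213 in the cold, 240 in the CL and 207 in the saline library and held 981135, 752085 and 635246 UMIs. The median capillary barcode had 3179 UMIs in the cold, 2273 in the CL and 2245 in the saline library, so the cold ones were the deepest. Between 9 and 14 barcodes, counted before filtering, were shared by any pair of libraries, and none of them was a capillary barcode in both.

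Of the 6 marker genes of the label 5 were genes of the rule, so their levels describe the choice of barcodes and do not test the label. Gpihbp1 (ENSMUSG00000022579; GRCm38 chromosome 15, 75596628 to 75599481) was at 2354 CPM in the cold, 1663 in the CL and 1387 in the saline library, with a UMI in 98.6%, 93.3% and 91.8% of the barcodes. The retinol binding protein gene Rbp7 was at 2437 CPM in the cold, 1201 in the CL and 1697 in the saline library, and the butyrophilin-like Btnl9 at 1091, 1042 and 896 CPM in the same libraries. VE-cadherin (Cdh5), the adhesion molecule of endothelial junctions, was at 1270.0 (cold), 1380 (CL) and 1105 CPM (saline), and the tight junction claudin Cldn5 at 764 (cold), 613 (CL) and 1244 CPM (saline). Cd300lg, an endothelial receptor of the immunoglobulin family, was the only marker gene outside the rule. It was at 1341 (cold), 1122 (CL) and 861 CPM (saline), with a UMI in 96.7%, 86.3% and 83.6% of barcodes.

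The members were spread well above the rule's limits. The sum of the 3 capillary genes had a median of 20 UMIs in the cold, 10 in the CL and 9 in the saline library. Only 4 cold, 16 CL and 17 saline barcodes sat at the lowest sum allowed, 3, and 6, 15 and 19 otherwise matching barcodes sat just outside it at a sum of 2. Fabp4, which the rule did not use, was at 7341 CPM in the cold, 19948 in the CL and 13836 in the saline barcodes just inside the limit, and at 19612, 15229 and 25016 CPM in those just outside. The otherwise matching barcodes with a sum of 0 numbered 52 in the cold, 55 in the CL and 63 in the saline library, and there Fabp4 was at 845 (cold), 463 (CL) and 1673 CPM (saline).

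Genes that the rule did not use also set the capillary barcodes apart from the other cells of their library, which is a description, since the same barcodes were chosen by endothelial genes. The comparison classes were venous and lymphatic endothelium, adipose stem and progenitor cells (ASPC), pericytes with smooth muscle, B cells and macrophages. The pericyte class was used whole here, and 25 of its 50 cold, 30 of its 59 CL and 21 of its 78 saline barcodes were capillary barcodes as well. Car4, a carbonic anhydrase on the luminal face of capillaries, was at 254 (cold), 144 (CL) and 181 CPM (saline), against at most 29.2, 6.81 and 5.58 CPM in any of those classes. Its level exceeded that of the highest other class by a log2 ratio of at least 2.48 in every library, after adding 20 CPM to each level. The same least ratio was 1.41 for the ephrin ligand gene Efnb1, 1.24 for the lysophosphatidic acid receptor Lpar6, 1.22 for the fatty acid translocase Cd36, 1.19 for the glycerol channel Aqp7, 0.97 for the VEGF receptor Kdr and 0.93 for Fabp4. Ccdc85a, at 1.46, and Cd300lg, at 1.27, also stood among the first genes in this order, and the genes named here are a selection from the first 30.

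Markers of other cells were present at low levels and differed between libraries, and they are set beside the results they move with. The 12 ASPC genes summed to 645 CPM in the cold, 2833 in the CL and 2223 in the saline capillary barcodes, and 3 barcodes held 35.2%, 61.9% and 78.0% of those UMIs. All 9 ASPC genes with enough UMIs to compare were lower in the cold than in the saline library, against 49.6% of all genes compared. In the cold library 2 of the 12 were at 0. The 12 macrophage and monocyte genes summed to 36.7 CPM in the cold, 527 in the CL and 92.9 in the saline barcodes, and 3 barcodes held 68.7% of the CL UMIs. The 4 haemoglobin genes summed to 5176 (cold), 2199 (CL) and 2144 CPM (saline), with 74.3% (cold), 79.8% (CL) and 59.6% (saline) of the UMIs in 3 barcodes. The 12 pericyte and smooth muscle genes summed to 1487 (cold), 1675 (CL) and 1124 CPM (saline), and 25 cold, 30 CL and 21 saline capillary barcodes also met the pericyte definition. Epithelial genes were at 0 in all 3 libraries. Leaving out every barcode with at least 2 UMIs over 11 markers of other cells left 176 cold, 171 CL and 172 saline barcodes. Values for that set are given beside some of the results that it changes.

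Capillary barcodes took a larger share of the cold library than of the saline library. They were 5.52% (4.82 to 6.28) of the kept barcodes in the cold, 3.58% (3.15 to 4.05) in the CL and 3.30% (2.87 to 3.77) in the saline library. The log2 ratio of shares was 0.74 (0.47 to 1.01) for cold over saline, 0.12 (-0.15 to 0.38) for CL over saline and -0.62 (-0.88 to -0.36) for CL over cold, with normal-approximation intervals. The immune share also differed, since B cells were 1191 of the kept barcodes in the cold, 148 in the CL and 1098 in the saline library, and macrophages 128, 1602 and 581.

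Among barcodes with Ptprc at 0 the capillary share was higher in both treated libraries. This set leaves out barcodes with a Ptprc UMI, and leukocytes with none captured can remain in it. The share was 14.98% (13.2 to 16.9) in the cold, 11.7% (10.3 to 13.2) in the CL and 7.85% (6.85 to 8.95) in the saline library. Among endothelial barcodes it was 67.4% (61.9 to 72.5) in the cold, 71.6% (66.5 to 76.4) in the CL and 52.5% (47.5 to 57.6) in the saline library. That order goes with the venous and lymphatic barcodes, of which there were 39 in the cold, 15 in the CL and 90 in the saline library. Depth touches these counts, since deeper barcodes reach the marker sums more easily. With every barcode thinned to 1500 UMIs before the rule, 189 of 3702 cold (5.11%), 169 of 6160 CL (2.74%) and 137 of 5442 saline barcodes (2.52%) were capillary. With at most 5% mitochondrial UMIs allowed, 7.85% of cold, 2.19% of CL and 3.50% of saline barcodes were capillary, so the CL share then lay below the saline share. The level of the rule's own genes touches the counts too. Gpihbp1, Rbp7 and Btnl9 were at 2354, 2437 and 1091 CPM in the cold capillary barcodes. They were at 1663, 1201 and 1042 CPM in the CL and at 1387, 1697 and 896 CPM in the saline ones. Thinning evens depth and not these levels, and how far they moved the shares was not tested. A share cannot tell more capillary cells from fewer cells of other types.

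**Figure D1:**
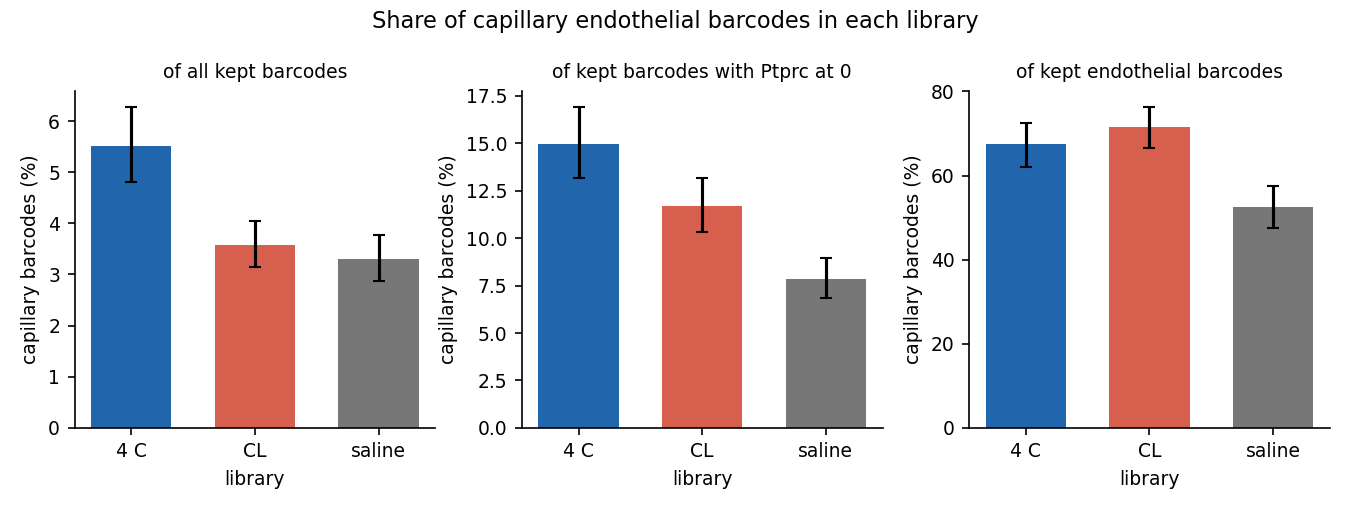
Percent of barcodes called capillary endothelial (y axis) in the 4 C, CL and saline libraries (x axis, 1 library each), out of all kept barcodes, of kept barcodes with Ptprc at 0 and of kept endothelial barcodes. Bars start at 0 and error bars are exact 95% Clopper-Pearson intervals; the 4 C bar is the tallest in the first panel at 5.52% and the CL bar in the last at 71.6%.

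The levels of 6659 genes with at least 40 UMIs over the 3 libraries' capillary barcodes were compared. A gene counts as past 2-fold when its log2 ratio lies beyond 1 or -1. Of these genes 219 (3.29%) were past 2-fold higher and 258 (3.87%) past 2-fold lower for cold over saline. For CL over saline 239 (3.59%) were higher and 3.65% lower by that margin, and for CL over cold 187 (2.81%) were higher and 130 (1.95%) lower. The median ratio over all compared genes was 0.01 for cold over saline, 0.03 for CL over saline and 0.00 for CL over cold, so the libraries were centred alike. Of all compared genes, 50.4% lay above 0 for cold over saline, 52.7% for CL over saline and 49.7% for CL over cold. Gene lists are read against these shares and medians.

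**Figure D2:**
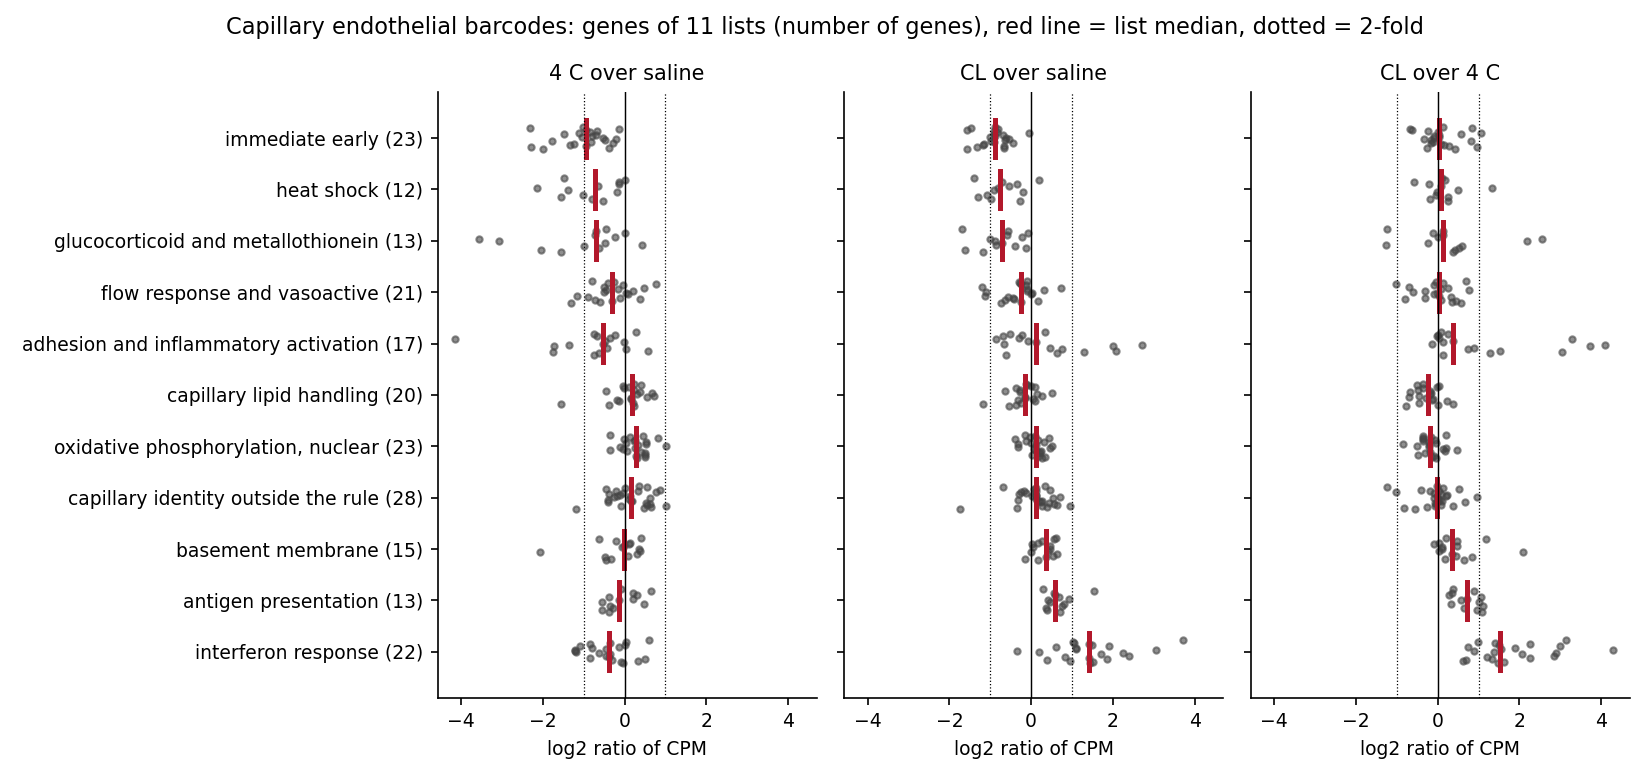
Log2 ratio of CPM (x axis) of each compared gene in 11 lists (y axis, number of genes in brackets) for 4 C over saline, CL over saline and CL over 4 C. Red lines are list medians and dotted lines mark 2-fold; the interferon response median lies at 1.42 for CL over saline and the immediate early median at -0.94 for 4 C over saline.

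Lipid handling genes differed in both directions. Of 27 genes listed, 1 was a gene of the rule and 6 had too few UMIs, and of the 20 compared 13 were higher and 7 lower for cold over saline, against 50.4% and 49.6% of all compared genes. Their median was 0.18, and 1 was past 2-fold, against 7.16% of all compared genes in either direction. For CL over saline 6 were higher and 14 lower (52.7% and 47.3% of all compared genes), with a median of -0.14 and 1 past 2-fold, against 7.24% of all. For CL over cold 4 were higher and 16 lower (49.7% and 50.3%), with a median of -0.24 and none past 2-fold, against 4.76% of all. In other classes the cold over saline median was 0.16 in venous and lymphatic endothelium, 0.35 in ASPC and 0.07 in macrophages. It was 0.04 in B cells and 0.26 in pericyte barcodes that were not also capillary.

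The fatty acid binding protein gene Fabp4 (ENSMUSG00000062515; chromosome 3, 10204088 to 10208576, minus strand) was at 42786 CPM in the cold, 26231 in the CL and 29012 in the saline library. Its log2 ratio was 0.56 (0.54 to 0.59) for cold over saline, -0.15 (-0.17 to -0.12) for CL over saline and -0.71 (-0.73 to -0.68) for CL over cold. Fabp5, which binds the same ligands, was at 1621 (cold), 1185 (CL) and 984 CPM (saline), ratios of 0.72 (0.59 to 0.86) for cold over saline and 0.27 (0.12 to 0.42) for CL over saline. The cold library had the highest level of both. Adipocyte and thermogenic genes also summed highest in the cold capillary barcodes, at 1318 CPM against 743 in the saline ones. How much of the lipid handling levels came from adipocyte RNA was not tested.

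Mgll, the lipase that frees fatty acid from monoacylglycerol, was at 2172 (cold), 1369.5 (CL) and 1658 CPM (saline), a cold over saline ratio of 0.39 (0.28 to 0.50). Cd36 was at 3520.4 (cold), 2868 (CL) and 3159 CPM (saline), a cold over saline ratio of 0.16 (0.08 to 0.24). Lipoprotein lipase itself (Lpl) was at 601 (cold), 531 (CL) and 483 CPM (saline), a cold over saline ratio of 0.32 (0.11 to 0.52). These differences were under 2-fold and their counting intervals lay above 0. Meox2, which with Tcf15 forms a pair of transcription factors known from heart capillaries to drive fatty acid uptake, was at 189 (cold), 168 (CL) and 118 CPM (saline). Its ratios were 0.68 (0.28 to 1.08) for cold over saline and 0.50 (0.08 to 0.94) for CL over saline. Tcf15 was at 342 (cold), 267 (CL) and 289.7 CPM (saline), and the interval of its cold over saline ratio held 0.

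Other members had the opposite or no direction. Angptl4, a secreted inhibitor of lipoprotein lipase, was at 205 (cold), 265 (CL) and 598 CPM (saline), ratios of -1.55 (-1.80 to -1.30) for cold over saline and -1.18 (-1.43 to -0.93) for CL over saline. It was the only lipid handling gene past 2-fold in either comparison with saline. Plin2, a coat protein of lipid droplets, was at 271 (cold), 238 (CL) and 370 CPM (saline), ratios of -0.45 (-0.71 to -0.19) and -0.64 (-0.92 to -0.35) for cold and CL over saline. The lipid-sensing nuclear receptor Pparg was at 210.0 (cold), 165 (CL) and 213 CPM (saline), and the lipoprotein receptor Scarb1 at 337 (cold), 347 (CL) and 348 CPM (saline).

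All 28 identity genes outside the rule were compared. For cold over saline 17 were higher and 11 lower (50.4% and 49.6% of all compared genes), with a median of 0.15. For CL over saline 20 were higher and 8 lower (52.7% and 47.3% of all), with a median of 0.12. The CL over cold median was -0.01, with 14 higher and 14 lower (49.7% and 50.3% of all). Kdr, the main VEGF receptor of endothelium, was at 1486 (cold), 1399 (CL) and 960 CPM (saline), ratios of 0.63 (0.49 to 0.77) and 0.54 (0.40 to 0.69) for cold and CL over saline. The decoy VEGF receptor Flt1 was at 1849 (cold), 1851 (CL) and 1700 CPM (saline), with ratios of 0.12 in both comparisons with saline. Kdr was thus higher in both treated libraries than in the saline library, and Flt1 was close to level.

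Clec14a, an endothelial lectin, was at 172 (cold), 164 (CL) and 85.01 CPM (saline), ratios of 1.02 (0.57 to 1.49) and 0.94 (0.47 to 1.43) for cold and CL over saline. The surface sialomucin Emcn was at 493 (cold), 476 (CL) and 323 CPM (saline), and the TGF-β co-receptor Eng at 727 (cold), 694 (CL) and 508 CPM (saline). Sox18, a transcription factor of vessel formation, was at 172 (cold), 130 (CL) and 94.5 CPM (saline), a cold over saline ratio of 0.87 (0.43 to 1.32). All 4 had higher levels in both treated libraries.

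A few identity genes separated cold from CL. The metalloproteinase inhibitor gene Timp4 was at 624 (cold), 263 (CL) and 423 CPM (saline), ratios of 0.56 (0.35 to 0.77) for cold over saline, -0.69 (-0.96 to -0.42) for CL over saline and -1.24 (-1.48 to -1.01) for CL over cold. Car4 followed the same order, with ratios of 0.49 (0.16 to 0.82) for cold over saline and -0.82 (-1.16 to -0.49) for CL over cold. Ly6a, the surface protein known as Sca-1, was at 1052 (cold), 2032 (CL) and 1252 CPM (saline), a ratio of 0.95 (0.83 to 1.07) for CL over cold. The water channel gene Aqp1 was at 289 (cold), 198 (CL) and 661 CPM (saline), ratios of -1.19 (-1.41 to -0.97) and -1.74 (-2.02 to -1.47) for cold and CL over saline. Plvap, which builds the diaphragms of endothelial caveolae and fenestrae, was at 728 (cold), 562 (CL) and 973 CPM (saline), and venous and lymphatic barcodes also held Aqp1, at 884 (cold), 504 (CL) and 848 CPM (saline).

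The largest set of genes lower in both treated libraries was the immediate early list, genes transcribed within minutes of a stimulus. Of 25 listed, 23 were compared, and all 23 were lower for cold over saline (49.6% of all compared genes), with a median of -0.94 and 10 past 2-fold lower against 3.87% of all. All 23 were also lower for CL over saline (47.3% of all), with a median of -0.89 and 6 past 2-fold lower against 3.65% of all. For CL over cold 13 were higher and 10 lower (49.7% and 50.3% of all), with a median of 0.02. The compared genes summed to 9658 CPM in the cold, 9564 in the CL and 17305 in the saline library.

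The stress-induced transcription factor gene Atf3 (ENSMUSG00000026628; chromosome 1, 191170296 to 191218039, minus strand) had 125 UMIs in the cold, 129 in the CL and 325 in the saline library. Its level was 127 (cold), 172 (CL) and 512 CPM (saline), ratios of -2.01 (-2.31 to -1.70) and -1.58 (-1.88 to -1.28) for cold and CL over saline. Egr1, a zinc finger transcription factor of the early response, was at 1182 (cold), 1308 (CL) and 2972 CPM (saline), ratios of -1.33 (-1.44 to -1.22) and -1.18 (-1.30 to -1.07). Both were lower by more than 2-fold in each treated library.

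The AP-1 subunits spanned a range. Fos was at 1499 (cold), 1335 (CL) and 1829 CPM (saline), a cold over saline ratio of -0.29 (-0.40 to -0.17). Jun was at 1032 (cold), 1058 (CL) and 2114 CPM (saline), a ratio of -1.04 (-1.15 to -0.92), and Junb at 1167 (cold), 1097 (CL) and 2021 CPM (saline), a ratio of -0.79 (-0.91 to -0.68). Fosl2 was at 53.0 (cold), 93.1 (CL) and 183 CPM (saline), a cold over saline ratio of -1.78 (-2.29 to -1.30). Klf6, a zinc finger factor of vessel injury, was at 257 (cold), 382 (CL) and 719 CPM (saline), a cold over saline ratio of -1.49 (-1.71 to -1.26) and a CL over cold ratio of 0.57 (0.32 to 0.82). The nuclear protein gene Csrnp1 and the kinase gene Plk3 had the lowest cold over saline ratios of the list, at -2.29 (-2.93 to -1.68) and -2.31 (-3.03 to -1.63).

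Heat shock genes lay the same way. Of 12 chaperone genes 11 were lower and 1 higher for cold over saline, with a median of -0.72 and 5 past 2-fold lower, against 49.6% lower and 3.87% past 2-fold lower among all compared genes. For CL over saline 11 were lower and 1 higher, with a median of -0.75 and 3 past 2-fold lower, against 47.3% and 3.65% of all compared genes. The CL over cold median was 0.09, with 7 higher and 5 lower (49.7% and 50.3% of all). Dnajb1, a co-chaperone, was at 85.6 (cold), 102 (CL) and 253 CPM (saline), ratios of -1.57 (-1.96 to -1.18) and -1.31 (-1.72 to -0.91). The inducible chaperone Hsp90aa1 was at 626 (cold), 605 (CL) and 1270.4 CPM (saline), against 1670.5 (cold), 1653 (CL) and 1903 CPM (saline) for its constitutive relative Hsp90ab1. Hspa1a and Hspa1b, near-identical copies whose reads the counting could split, had cold over saline ratios of -1.39 (-1.64 to -1.14) and -2.14 (-2.54 to -1.76). Hspe1, a mitochondrial chaperone, was the member not lower in either, at 134 (cold), 150 (CL) and 132 CPM (saline).

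The same lists were lower in several other classes of the same libraries. The immediate early median for cold over saline was -0.25 in venous and lymphatic endothelium, -0.49 in pericyte barcodes that were not also capillary, -0.46 in ASPC, -0.10 in macrophages and -0.07 in B cells. For CL over saline it was -0.80, -1.03, -0.47, -0.36 and 0.26 in those classes. The comparison classes held between 15 and 1602 barcodes a library, and the difference between classes was not tested. After thinning each capillary barcode to 1500 UMIs, Atf3 was seen in 9.05% of cold, 9.23% of CL and 42.2% of saline barcodes, against 1.02%, 4.76% and 4.67% of B cells at the same depth.

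**Figure D3:**
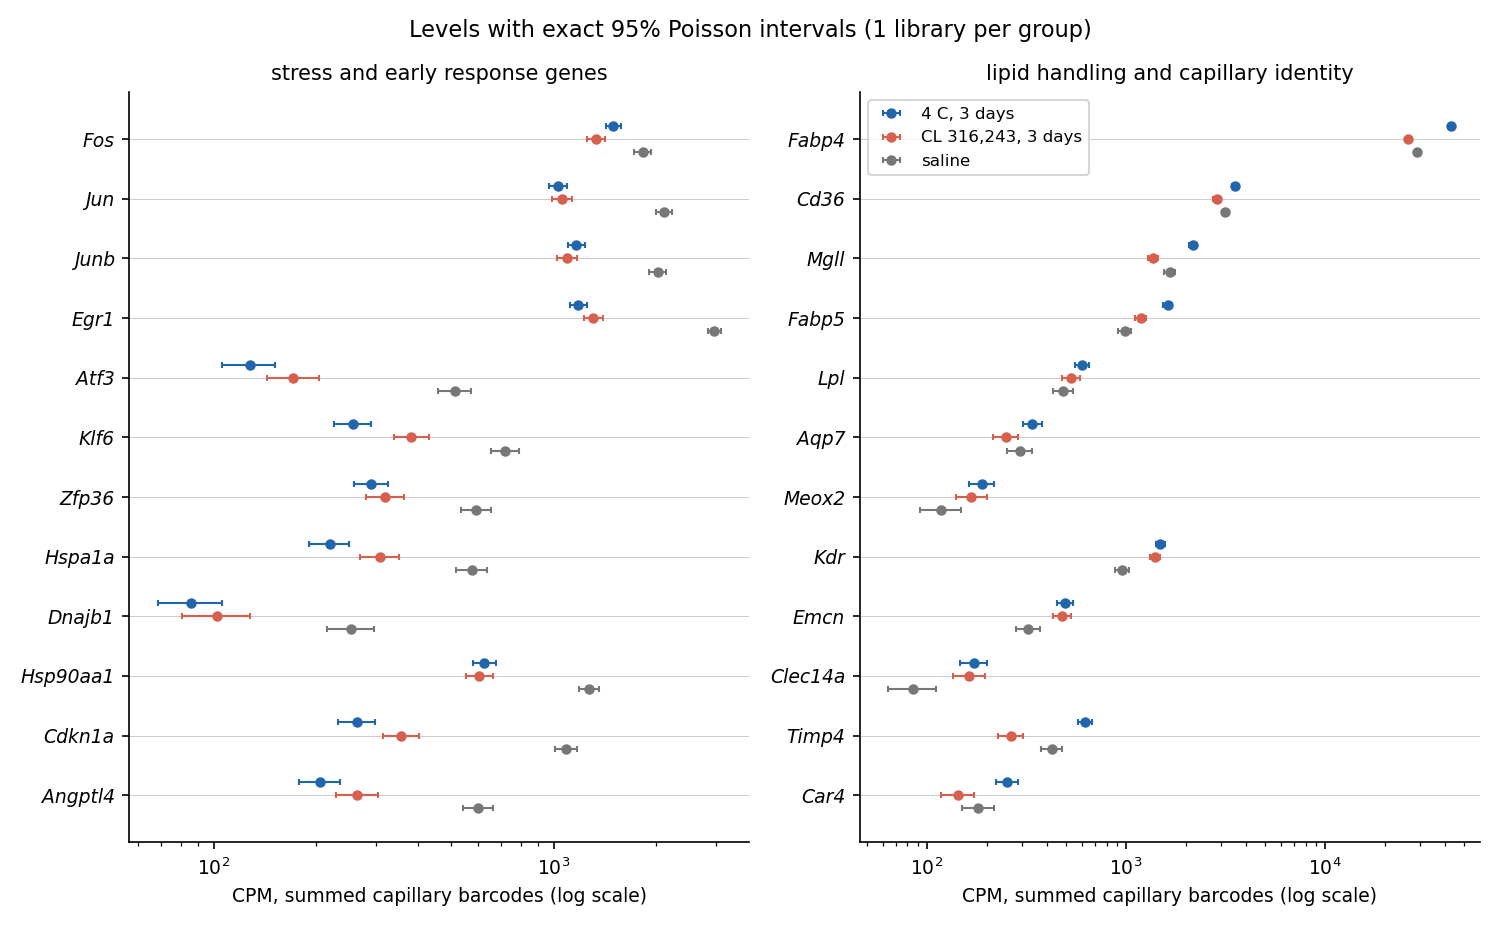
CPM of 24 genes (y axis) summed over the capillary barcodes of the 4 C (blue), CL (red) and saline (grey) libraries, 1 library each, on a log x axis with exact 95% Poisson intervals. The early response and chaperone genes on the left have their highest level in the saline library, as Egr1 at 2972 CPM; on the right Fabp4 and Timp4 are highest in the 4 C library and Kdr and Clec14a are higher in both treated libraries.

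Glucocorticoid-responsive and metallothionein genes were mostly lower too. Of 13 compared, 11 were lower for cold over saline (49.6% of all compared genes), with a median of -0.70. All 13 were lower for CL over saline (47.3% of all), with a median of -0.72. The CL over cold median was 0.14, with 9 higher and 4 lower (49.7% and 50.3% of all). The cell cycle inhibitor gene Cdkn1a (ENSMUSG00000023067; chromosome 17, 29090976 to 29100727) was at 263 (cold), 355 (CL) and 1089 CPM (saline), ratios of -2.05 (-2.26 to -1.84) and -1.62 (-1.83 to -1.41). The metal-binding protein gene Mt1 was at 24.5 (cold), 112 (CL) and 206 CPM (saline), a cold over saline ratio of -3.08 (-3.77 to -2.44). Mt1 was also at 650 (cold), 1180.0 (CL) and 1688 CPM (saline) in ASPC, whose markers were lowest in the cold capillary barcodes. Without barcodes holding markers of other cells Mt1 had 15 (cold), 13 (CL) and 37 UMIs (saline), a cold over saline ratio of -1.95 and a CL over cold ratio of 0.51 against 2.19 with them.

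Genes set by blood flow and those that act on vessel tone were lower more often than higher. Of 21 compared, 15 were lower for cold over saline (49.6% of all compared genes), with a median of -0.30. For CL over saline 17 were lower (47.3% of all), with a median of -0.24. The CL over cold median was 0.04, with 11 higher and 10 lower (49.7% and 50.3% of all). Klf2, the shear-responsive transcription factor, was at 623 (cold), 779 (CL) and 1162 CPM (saline), ratios of -0.90 (-1.06 to -0.74) and -0.58 (-0.74 to -0.42). Its relative Klf4, also an early response gene, was at 689 (cold), 706 (CL) and 1530 CPM (saline), ratios of -1.15 (-1.29 to -1.01) and -1.12 (-1.27 to -0.96). The nitric oxide synthase gene Nos3 was at 57.1 (cold), 53.2 (CL) and 53.5 CPM (saline), with intervals that held 0. Ace, which makes angiotensin II, was at 75.4 (cold), 112 (CL) and 186 CPM (saline), a cold over saline ratio of -1.30 (-1.74 to -0.87). The endothelin receptor gene Ednrb lay the other way for cold, at 370.0 (cold), 213 (CL) and 283 CPM (saline), a CL over cold ratio of -0.80 (-1.08 to -0.53).

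Interferon response genes separated the CL library from both others. Of 24 listed 22 were compared, and 21 were higher and 1 lower for CL over saline (52.7% and 47.3% of all compared genes), with a median of 1.42 and 16 past 2-fold higher against 3.59% of all. All 22 were higher for CL over cold (49.7% of all), with a median of 1.51 and 17 past 2-fold against 2.81% of all. For cold over saline 5 were higher and 17 lower (50.4% and 49.6% of all), with a median of -0.37 and 4 past 2-fold lower against 3.87%. The compared genes summed to 2663 CPM in the cold, 6405 in the CL and 3379.8 in the saline library.

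Irf7, the transcription factor that amplifies type I interferon signalling (ENSMUSG00000025498; chromosome 7, 141262706 to 141266481, minus strand), had 20 UMIs in the cold, 297 in the CL and 30 in the saline library. Its level was 20.4 (cold), 395 (CL) and 47.2 CPM (saline), ratios of 3.06 (2.52 to 3.66) for CL over saline and 4.28 (3.62 to 5.01) for CL over cold. Its CL UMIs were spread, with 42 of the 297 in the 3 highest barcodes. Usp18, which removes ISG15 from proteins and damps the receptor, had 7 (cold), 47 (CL) and 3 UMIs (saline), a CL over saline ratio of 3.73 (2.09 to 6.05) that rests on 3 saline UMIs.

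The antiviral effectors lay between these and 2-fold. Ifit1, which binds foreign RNA ends, was at 17.3 (cold), 125 (CL) and 23.6 CPM (saline), a CL over saline ratio of 2.404 (1.61 to 3.30), and Ifit3 at 18.3 (cold), 136 (CL) and 28.3 CPM (saline), a ratio of 2.26 (1.53 to 3.07). The enzyme viperin (Rsad2) was at 128 (cold), 360.3 (CL) and 128 CPM (saline), a ratio of 1.499 (1.14 to 1.88). Bst2, or tetherin, which holds budding virions at the cell surface, was at 346 (cold), 965 (CL) and 354 CPM (saline), a ratio of 1.45 (1.23 to 1.67). The ubiquitin-like Isg15 was at 103 (cold), 382 (CL) and 179 CPM (saline), ratios of 1.09 (0.77 to 1.41) for CL over saline and -0.80 (-1.20 to -0.40) for cold over saline. The signalling factors of the same response were higher too, with CL over saline ratios of 1.02 (0.28 to 1.81) for Stat2 and 1.09 (0.47 to 1.74) for Irf9.

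Among the GTPases of the list, Iigp1 was the 1 gene lower for CL over saline, at 299 (cold), 550.5 (CL) and 696 CPM (saline), ratios of -0.34 (-0.53 to -0.14) for CL over saline and -1.22 (-1.44 to -1.004) for cold over saline. Igtp was at 35.7 (cold), 93.1 (CL) and 81.9 CPM (saline), and the interval of its CL over saline ratio held 0. Gbp4 was at 115 (cold), 186 (CL) and 142 CPM (saline) and Gbp2 at 147 (cold), 226 (CL) and 116 CPM (saline), CL over saline ratios of 0.39 (0.00 to 0.79) and 0.96 (0.55 to 1.37).

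**Figure D4:**
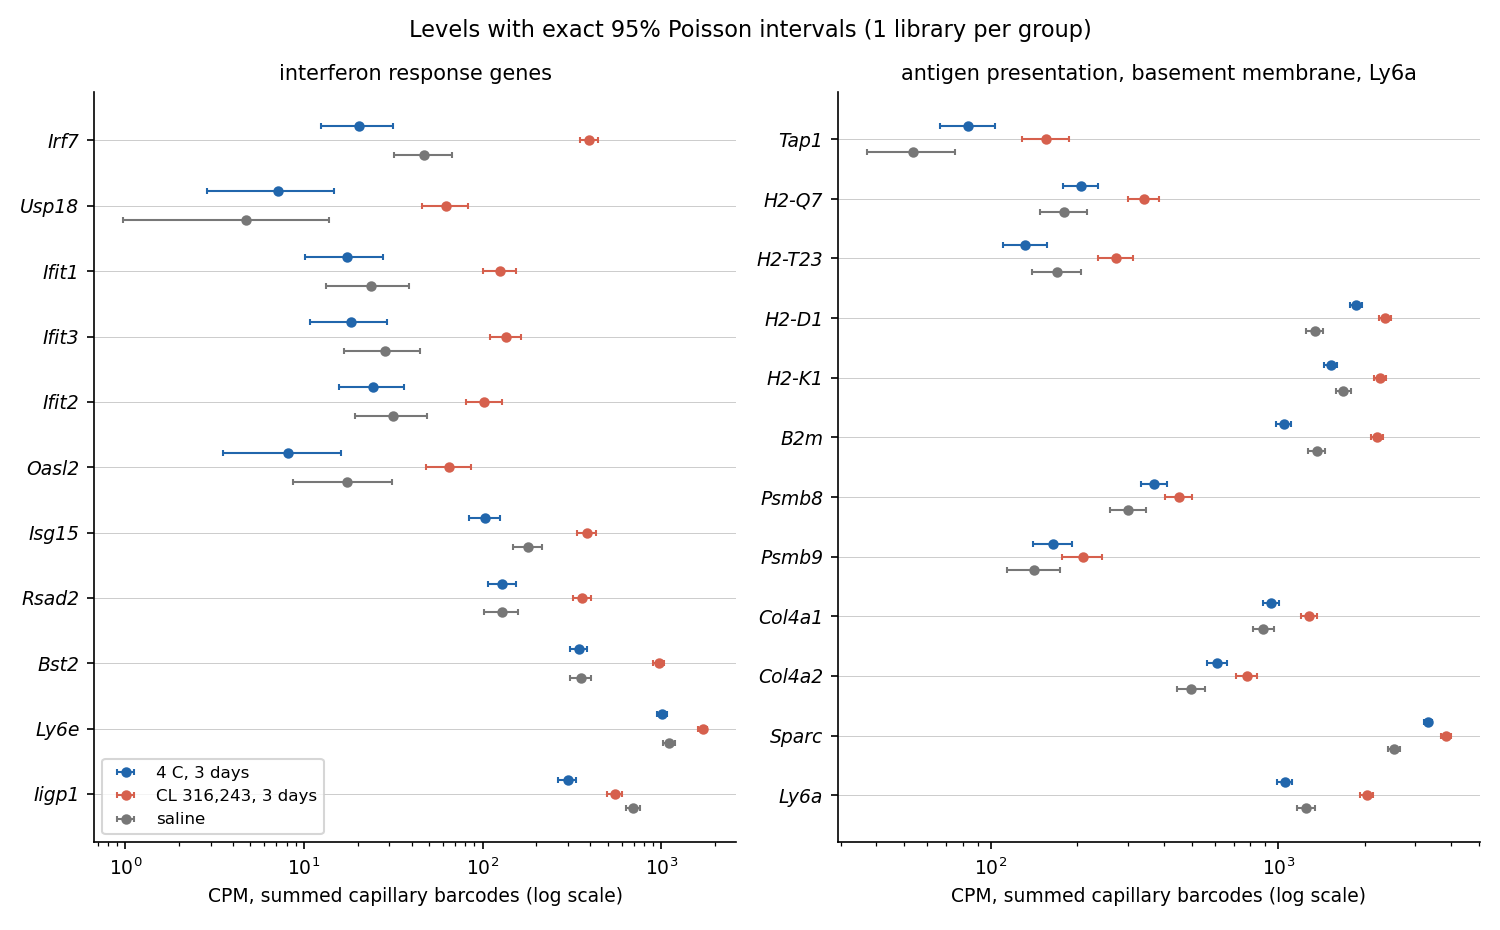
CPM of 23 genes (y axis) summed over the capillary barcodes of the 4 C (blue), CL (red) and saline (grey) libraries, 1 library each, on a log x axis with exact 95% Poisson intervals. The CL point is the highest for every gene except Iigp1, where saline is highest at 696 CPM; Irf7 lies at 395 CPM in CL against 47.2 in saline.

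The 5 promoter stretches come from interferon response genes that were higher for CL over saline and hold the same short motif. They are from RefSeq (GRCm38.p6), 5′ to 3′ on the strand of the gene, and capitals mark each match to GAAANNGAAA or its reverse complement, a core that interferon-regulated promoters are known for. Ifit1 is shown at chr19:34640765-34640833 (plus strand), Ifit3 at chr19:34583353-34583436 (plus), Isg15 at chr4:156200855-156200916 (minus), and Rsad2 at chr12:26456543-26456592 (minus). Bst2 lies at chr8:71537567-71537622 (minus). Where matches overlap, as in Isg15 and Bst2, their joint span is in capitals.
Ifit1: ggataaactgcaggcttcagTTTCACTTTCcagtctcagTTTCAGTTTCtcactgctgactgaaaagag
Ifit3: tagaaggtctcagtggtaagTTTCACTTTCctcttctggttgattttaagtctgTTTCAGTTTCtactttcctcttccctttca
Isg15: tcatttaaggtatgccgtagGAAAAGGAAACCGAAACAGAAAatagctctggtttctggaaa
Bst2: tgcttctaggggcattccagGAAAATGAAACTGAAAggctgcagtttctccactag
Rsad2: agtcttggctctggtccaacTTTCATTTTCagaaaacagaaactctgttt

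The motif was searched on both strands in the 250 bases before each start site. It was found in 9 of the 16 interferon response genes with a promoter in the RefSeq table (24 were listed), which were Ifit1, Ifit3, Ifit3b, Isg15, Rsad2, Stat2, Bst2, Gbp2 and Igtp. That is 56.2%, against 936 of 27025 promoters in the whole table (3.46%) and 169 of the 5176 compared genes with a promoter (3.27%). It was found in 2 of 10 antigen presentation genes, in 2 of 20 immediate early genes and in none of 9 heat shock genes. The promoter of Irf7 held no match in this window. A match describes the letters and says nothing of binding.

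The interferon genes were also higher in the CL library in other cells. Their CL over saline median was 0.79 in venous and lymphatic endothelium (10 genes compared), 1.42 in pericyte barcodes that were not also capillary (6 genes), 3.05 in ASPC (24 genes), 1.67 in macrophages (24 genes) and 1.41 in B cells (16 genes). In macrophages all 24 were lower for cold over saline, with a median of -1.45. Of the 9266 genes compared in macrophages 4855 were lower, with a median of -0.02. The interferon difference was thus measured in every class compared, and how the classes differ was not tested.

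Macrophage RNA and macrophage markers were highest in the CL capillary barcodes, so their levels are set beside the interferon genes. In the CL library the macrophage genes Lyz2, C1qa and Tyrobp reached 2.17%, 1.61% and 2.56% of their macrophage level in capillary barcodes. Other genes that were higher in CL macrophages than in CL capillary barcodes reached more, Plac8 5.10%, Lgals3 5.31%, Ccl7 9.69%, Zbp1 10.4% and Cxcl10 16.2%. Irf7 reached 40.1% of its macrophage level there, Isg15 34.6%, Ifit1 46.4%, Rsad2 64.1% and Bst2 99.2%. Without barcodes holding markers of other cells Irf7 had 15 (cold), 150 (CL) and 21 UMIs (saline), the CL ones in 74 of 171 barcodes, and the CL over saline list median was 1.02. Within the CL library the interferon and macrophage sums per thinned barcode had a Spearman correlation of 0.03 over 195 barcodes of that library, given as a description. ASPC RNA was present in the CL capillary barcodes as well, where C3 reached 4.37%, Gsn 7.26% and Sfrp2 12.3% of their ASPC level. The interferon genes summed to 9149 CPM in CL ASPC. How much of the interferon levels came from RNA of other cells was not tested.

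Antigen presentation genes were higher in the CL library as well. All 13 compared were higher for CL over saline, against 52.7% of all compared genes, with a median of 0.58. Of the 13, 1 was past 2-fold higher, against 3.59% of all compared genes. All 13 were higher for CL over cold, against 49.7% of all, with a median of 0.73. B2m, the light chain of MHC class I, was at 1044 (cold), 2204 (CL) and 1362 CPM (saline), ratios of 0.70 (0.58 to 0.82) for CL over saline and 1.08 (0.97 to 1.19) for CL over cold. The heavy chain genes H2-K1 and H2-D1, whose reads related class I genes could share, were at 2255 and 2356 CPM in the CL library, against 1684 and 1341 CPM in the saline library. Tap1, which carries peptides to class I molecules, was at 83.6 (cold), 156 (CL) and 53.5 CPM (saline), a CL over saline ratio of 1.54 (0.98 to 2.14). The class II genes were low, H2-Ab1 with 29 (cold), 48 (CL) and 24 UMIs (saline). Leaving out the 3 barcodes with most UMIs of a gene set the list's CL over cold median to 0.39, and leaving out barcodes with other cells' markers set it to 0.35.

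Adhesion and inflammatory genes differed in direction between the treatments and between sets of barcodes. Of 17 compared, 14 were lower for cold over saline (49.6% of all compared genes), with a median of -0.52. For CL over saline 9 were higher and 8 lower (52.7% and 47.3% of all), with a median of 0.12. The CL over cold median was 0.38, with 15 higher and 2 lower (49.7% and 50.3% of all). Il6 had 2 (cold), 15 (CL) and 23 UMIs (saline). The chemokine genes Cxcl10 and Ccl2 had 71 and 76 UMIs in the CL barcodes, against 15 and 26 in the saline ones, but without barcodes holding markers of other cells they had 3 and 5 in CL and 10 and 2 in saline. The CL over saline median of the list was then -0.63. The NF-κB inhibitor gene Nfkbia was at 506 (cold), 507 (CL) and 592 CPM (saline), and the transcription factor gene Irf1 at 170 (cold), 169 (CL) and 271 CPM (saline). Csf1, a growth factor for macrophages, had 16 (cold), 35 (CL) and 7 UMIs (saline), a CL over saline ratio of 2.08 (0.89 to 3.49).

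Basement membrane genes were higher in the CL library. Of 15 compared, 14 were higher and 1 lower for CL over saline (52.7% and 47.3% of all compared genes), with a median of 0.37. For CL over cold 14 were higher (49.7% of all), with a median of 0.34. For cold over saline 7 were higher and 8 lower (50.4% and 49.6% of all), with a median of -0.02. The collagen IV chains Col4a1 and Col4a2 were at 1278 and 777 CPM in the CL library, against 886 and 497 CPM in the saline library, ratios of 0.53 (0.38 to 0.68) and 0.64 (0.44 to 0.84). The matrix protein gene Sparc was at 3318 (cold), 3833 (CL) and 2523 CPM (saline), ratios of 0.39 (0.31 to 0.48) and 0.60 (0.51 to 0.69) for cold and CL over saline. The perlecan gene Hspg2 was at 683 (cold), 697 (CL) and 526 CPM (saline). None of these was past 2-fold. Fibronectin (Fn1) was at 57.1 (cold), 241 (CL) and 239 CPM (saline), and ASPC, whose markers were lowest in the cold capillary barcodes, held it at 2718 (cold), 1619 (CL) and 3181 CPM (saline). Without barcodes holding markers of other cells Fn1 had 17 (cold), 44 (CL) and 61 UMIs (saline), a cold over saline ratio of -2.49. How much Fn1 came from ASPC RNA was not tested. In other classes the CL over saline median was 0.64 in venous and lymphatic endothelium, 0.99 in pericyte barcodes that were not capillary and -0.14 in ASPC.

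Secreted signals varied one by one. The chemokine gene Cxcl12 was at 1923 (cold), 2407 (CL) and 1379 CPM (saline), ratios of 0.48 (0.36 to 0.60) and 0.80 (0.69 to 0.92) for cold and CL over saline. The guidance ligand gene Slit3 was at 98.9 (cold), 58.5 (CL) and 47.2 CPM (saline), a cold over saline ratio of 1.07 (0.46 to 1.71), and after thinning it was seen in 15.1% of cold, 6.67% of CL and 6.63% of saline barcodes, against 0.170%, 0% and 0.583% of B cells. Angpt2, a ligand that loosens vessels for sprouting (chromosome 8, 18690263 to 18741562, minus strand), had 35 (cold), 13 (CL) and 6 UMIs (saline), a cold over saline ratio of 1.92 (0.65 to 3.46). Of its cold UMIs 17 were in 3 barcodes, and the pericyte class held it at 89.5 CPM in the cold library. The growth factor genes Pdgfb and Tgfb1 had intervals that held 0 in both comparisons with saline. Over the vascular growth and tip cell list, 10 were higher and 11 lower for cold over saline, with a median of -0.04. For CL over saline 14 were higher and 7 lower, with a median of 0.12. Of all compared genes 50.4% were higher for cold and 52.7% for CL over saline.

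Nuclear genes of oxidative phosphorylation were slightly higher in the cold library. Of 23 compared, 18 were higher and 5 lower for cold over saline (50.4% and 49.6% of all compared genes), with a median of 0.28. For CL over saline 16 were higher and 7 lower (52.7% and 47.3% of all), with a median of 0.13. Cyc1, of respiratory complex III, was at 95.8 (cold), 67.8 (CL) and 47.2 CPM (saline), a cold over saline ratio of 1.02 (0.41 to 1.66). Cox4i1, of complex IV, was at 871 (cold), 703 (CL) and 614 CPM (saline), a ratio of 0.51 (0.33 to 0.68), and the ATP synthase gene Atp5b at 550.4 (cold), 496 (CL) and 390 CPM (saline), a ratio of 0.50 (0.28 to 0.72). The cold-induced RNA-binding protein gene Rbm3 was at 475 (cold), 359 (CL) and 279 CPM (saline), a cold over saline ratio of 0.77 (0.52 to 1.03). Cirbp, the related gene, was at 98.9 (cold), 67.8 (CL) and 74.0 CPM (saline), and the interval of its ratio held 0. In B cells, ASPC and macrophages the oxidative phosphorylation medians were 0.40, 0.22 and 0.02 for cold over saline. For CL over saline they were 0.47, 0.39 and 0.51. Venous and lymphatic endothelium had -0.04 for cold and -0.07 for CL over saline. Pericyte barcodes that were not also capillary had -0.30 and 0.02.

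Transporter genes were lower in the CL library more often than higher. Of 15 compared, 12 were lower for CL over saline (47.3% of all compared genes), with a median of -0.43. For cold over saline 8 were higher and 7 lower (50.4% and 49.6% of all), with a median of 0.05. The taurine transporter gene Slc6a6 was at 840 (cold), 589 (CL) and 501 CPM (saline), a cold over saline ratio of 0.75 (0.56 to 0.94). The neutral amino acid carrier Slc38a2 was at 180 (cold), 185 (CL) and 351 CPM (saline), ratios of -0.96 (-1.25 to -0.67) and -0.93 (-1.24 to -0.61). Of 11 insulin and IGF signalling genes, 8 were lower in each comparison with saline, against 49.6% (cold) and 47.3% (CL) of all compared genes. Irs2, an adaptor of the insulin receptor, had 32 (cold), 13 (CL) and 38 UMIs (saline), a CL over saline ratio of -1.79 (-2.82 to -0.85), and the receptor gene Insr had 53, 45 and 51 UMIs in the cold, CL and saline libraries.

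UMIs of adrenergic receptor genes were few. Adrb3, the target of CL, had 2 UMIs over all 660 capillary barcodes and Adrb1 had 3. Gnas, the stimulatory G protein that these receptors couple to, was at 1779.6 (cold), 1904 (CL) and 1311 CPM (saline), ratios of 0.44 (0.32 to 0.56) and 0.54 (0.41 to 0.66). A low UMI count limits what can be seen of a receptor and does not show that it is absent.

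The rule for named genes also picked genes that stood in no list. Cyp1a1, a cytochrome P450 induced through the aryl hydrocarbon receptor (ENSMUSG00000032315; chromosome 9, 57687928 to 57703824), had 83 UMIs in the cold, 18 in the CL and 8 in the saline capillary barcodes. Its cold over saline ratio was 2.75 (1.70 to 4.01), and its cold UMIs lay in 45 barcodes with 13 in the highest 3. All other kept barcodes together held 5 (cold), 8 (CL) and 7 Cyp1a1 UMIs (saline). Gpd1, glycerol-3-phosphate dehydrogenase, had 39 (cold), 22 (CL) and 3 UMIs (saline), ratios of 3.07 (1.42 to 5.41) and 2.63 (0.90 to 5.01) that rest on 3 saline UMIs. The mitochondrial outer membrane channel gene Vdac3 was at 97.8 (cold), 78.4 (CL) and 26.8 CPM (saline), ratios of 1.87 (1.12 to 2.71) and 1.55 (0.75 to 2.42). Gstm5, a glutathione transferase, and Cck, the peptide hormone cholecystokinin, had 66 and 59 cold UMIs, but 3 barcodes held 35 and 37 of them.

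Others in no list were lower in the treated libraries. The secreted protease gene Adamts1 was at 400 (cold), 429 (CL) and 1307 CPM (saline), ratios of -1.71 (-1.89 to -1.53) and -1.61 (-1.80 to -1.42). Apold1, an early response gene of endothelium, was at 191 (cold), 338 (CL) and 579 CPM (saline), a cold over saline ratio of -1.60 (-1.87 to -1.35) and a CL over cold ratio of 0.83 (0.55 to 1.11). Nabp1, which binds single-stranded DNA, was at 63.2 (cold), 25.3 (CL) and 156 CPM (saline), a CL over saline ratio of -2.62 (-3.42 to -1.91). The stress cytokine gene Gdf15 had 73 (cold), 22 (CL) and 104 UMIs (saline), but 3 barcodes accounted for 47 cold and 53 saline UMIs. The circadian transcription factor gene Hlf had 21 (cold), 2 (CL) and 17 UMIs (saline), a CL over saline ratio of -3.33 (-6.49 to -1.26).

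Adipocyte genes were the other group that set the cold library apart. The 22 adipocyte and thermogenic genes summed to 1318 CPM in the cold, 576 in the CL and 743 in the saline capillary barcodes. In venous and lymphatic barcodes they summed to 354 (cold), 276 (CL) and 192 CPM (saline), and in B cells to 467 (cold), 521 (CL) and 601 CPM (saline). In the pericyte class they summed to 976 (cold), 545 (CL) and 681 CPM (saline), also highest in the cold, and 25 of its 50 cold barcodes were capillary barcodes as well. Car3, a carbonic anhydrase abundant in adipocytes, was at 327 (cold), 145 (CL) and 134 CPM (saline), a cold over saline ratio of 1.29 (0.94 to 1.65). Without barcodes holding markers of other cells that ratio was 0.94. After thinning Car3 was seen in 36.7% of cold, 15.4% of CL and 15.1% of saline capillary barcodes, against 1.11%, 0% and 1.75% of B cells. Cfd, or adipsin, was at 242 (cold), 30.6 (CL) and 150 CPM (saline), ratios of 0.69 (0.34 to 1.05) for cold over saline and -2.29 (-3.01 to -1.62) for CL over saline. Without barcodes holding markers of other cells these ratios were 0.21 and -2.62. The defining adipocyte hormone gene Adipoq had 14 (cold), 7 (CL) and 4 UMIs (saline).

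Ucp1, the uncoupling protein of thermogenic fat (ENSMUSG00000031710; chromosome 8, 83290352 to 83298452), had 100 UMIs in the cold, 5 in the CL and 1 in the saline capillary barcodes. They were 67.6% of the 148 Ucp1 UMIs in all kept cold barcodes. The cold ones lay in 31 of 213 barcodes (14.6%, 10.1 to 20.02), against 10 of 1191 B cells (0.840%), with median depths of 3179 and 2664 UMIs, and 3 barcodes held 47 of the 100. Its cold over saline ratio was 6.02 (3.51 to 11.34) from 1 saline UMI, and 3.53 without the 3 highest barcodes of each library, with saline then at 0 and set to a floor of 3 UMIs. After thinning Ucp1 was seen in 10.1% of cold and 1.54% of CL capillary barcodes and in 0 of 166 saline ones, against 0.596% of cold B cells. A count of 3 in those 166 would be 1.81% of barcodes with a UMI, and the exact 95% upper limit was 2.20%. Without barcodes holding markers of other cells Ucp1 had 48 UMIs in 25 of 176 cold barcodes, 4 UMIs in the CL and 1 in the saline library. In the cold pericyte class it was at 84.0 CPM, in 5 of 50 barcodes (10.0%), and 27 of its 31 UMIs there lay in barcodes that were also capillary.

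The cold barcodes were set apart by Ucp1 into the 3 with most, the other 28 with any and the 182 without it. Their median depths were 5304, 3600.5 and 3116.5 UMIs, so the sets with Ucp1 were deeper. Cd300lg, which the rule did not use, was at 1169, 1459 and 1327 CPM in these sets, with no common direction, and the rule gene Gpihbp1 at 3631, 2989 and 2235 CPM. Fabp4 was at 49852, 55690 and 40721 CPM and Cd36 at 4616, 4360 and 3374 CPM, both higher in the sets with Ucp1. Several adipocyte genes were higher with Ucp1 as well. Cidea, another gene of thermogenic fat, was at 492, 39.9 and 2.38 CPM (8, 5 and 2 UMIs), and Cox8b, a muscle and brown fat subunit of cytochrome oxidase, at 123, 39.9 and 13.1 CPM (2, 5 and 11 UMIs). Plin1, a coat protein of adipocyte lipid droplets, was at 61.5, 23.9 and 10.7 CPM (1, 3 and 9 UMIs), Cfd at 739, 287 and 225 CPM and Car3 at 615, 542 and 289 CPM. Adipoq was at 0, 7.97 and 15.5 CPM (0, 1 and 13 UMIs), too few UMIs in the sets with Ucp1 to give a direction. These levels describe barcodes chosen for Ucp1 and are given without a test. Over all capillary barcodes Cidea had 15 (cold), 9 (CL) and 0 UMIs (saline), 3.24-fold higher in cold than in saline with saline set to a floor of 3 UMIs. Of its 15 cold UMIs, 10 were in 3 barcodes. Without barcodes holding markers of other cells Cidea had 6 (cold), 4 (CL) and 0 UMIs (saline), the cold ones in 3 barcodes. Whether the Ucp1 molecules were made in the capillary cells was not tested.

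The lists also differed in how they varied among the capillary barcodes of a library, each thinned to 1500 UMIs (199 cold, 195 CL and 166 saline barcodes, with 14, 45 and 41 shallower ones left out). The median barcode held 7 immediate early UMIs in the cold, 9 in the CL and 23 in the saline library, with quartiles of 3 and 16, 4 and 17, and 12 and 38. The upper cold and CL quartiles thus lay below the saline median. For the interferon response the medians were 4 (cold), 8 (CL) and 5 UMIs (saline), with quartiles of 2 and 6, 5 and 13, and 3 and 7. For antigen presentation they were 9 (cold), 13 (CL) and 8 UMIs (saline). For lipid handling they were 102 (cold), 64 (CL) and 70.5 UMIs (saline), with a lower cold quartile of 75 above both other medians. Fabp4 made up most of that sum, 42786 of 56341 CPM in the cold, 26231 of 37528 in the CL and 29012 of 41323 in the saline library over the compared genes, whereas the median ratio per gene was 0.18 for cold over saline. The ranges overlapped for every list.

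**Figure D5:**
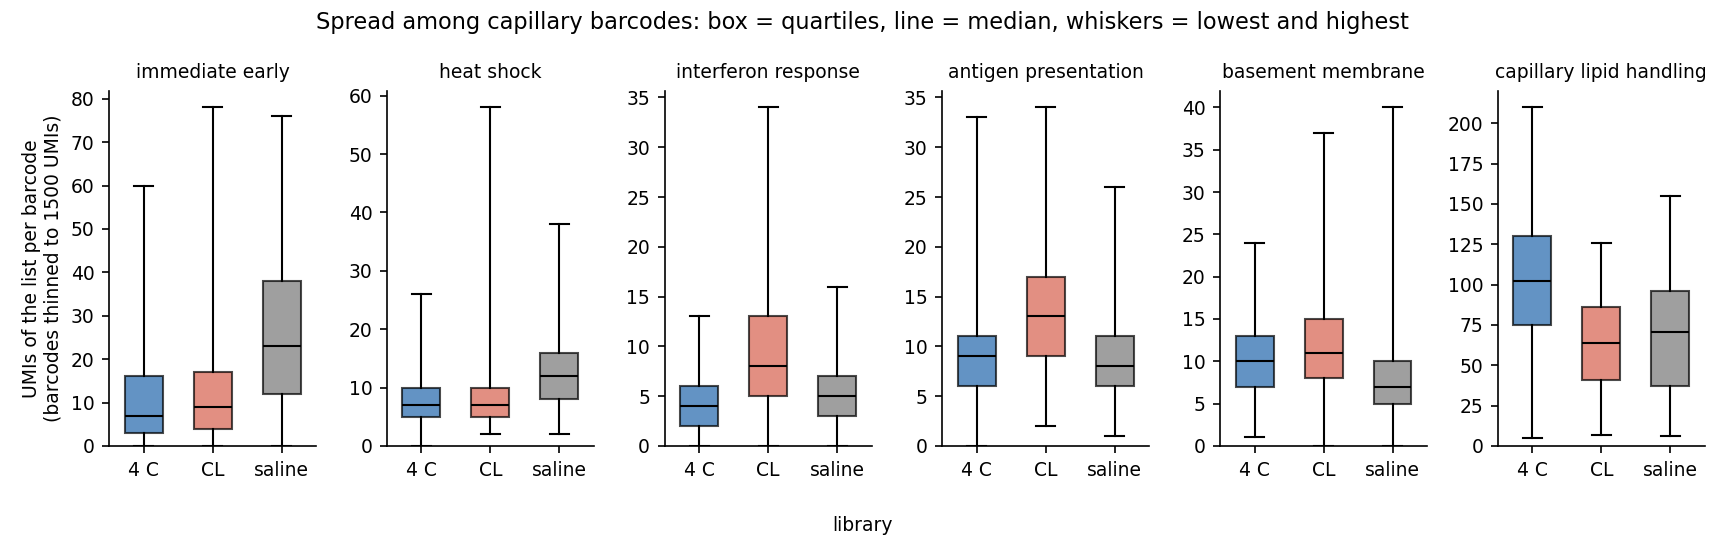
UMIs of 6 gene lists per capillary barcode (y axes, each from 0), with every barcode thinned to 1500 UMIs, in the 4 C (199 barcodes), CL (195) and saline (166) libraries. Boxes are quartiles, lines medians and whiskers the lowest and highest barcode; the immediate early median is highest in saline at 23 UMIs, the interferon median in CL at 8 and the lipid handling median in 4 C at 102.

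Single genes showed the same spread. After thinning Irf7 was seen in 3.02% of cold, 36.9% of CL and 8.43% of saline capillary barcodes, against 1.11%, 11.4% and 1.52% of B cells, and Bst2 in 37.2%, 65.1% and 43.4%, against 5.96%, 16.2% and 3.50% of B cells. Kdr was seen in 82.9% of cold, 85.6% of CL and 66.3% of saline capillary barcodes, against 0.766%, 0% and 0.233% of B cells. Between lists, the immediate early and heat shock sums had Spearman correlations of 0.52 (cold), 0.39 (CL) and 0.64 (saline) over those barcodes, and interferon response and antigen presentation 0.26 (cold), 0.61 (CL) and 0.17 (saline). Lipid handling and immediate early sums had -0.19 (cold), -0.34 (CL) and -0.14 (saline). Lipid handling and adipocyte sums had 0.26 (cold), 0.19 (CL) and 0.12 (saline). Barcodes of 1 library share its preparation and, here, an equal depth, and they are not replicates.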

How the data were processed

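The deposited matrices hold whole-number UMI counts per gene and barcode, made with Cell Ranger 3.0.2 per the file headers and on mm10 per the submitters' processing notes; none of them was normalized. Barcodes were filtered and chosen as the report states, and the UMI counts were summed per library. The 58 symbols with several IDs were summed, near-identical copies remain uncertain, and coordinates are GENCODE M21 (GRCm38). No doublets were removed; Scrublet called 4 (cold), 5 (CL) and 2 (saline) capillary barcodes.

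Genes with at least 40 UMIs were compared. CPM intervals are exact Poisson, ratio intervals exact binomial and share intervals Clopper-Pearson. CPM and ratio intervals leave out spread among barcodes. They are too narrow where barcodes vary beyond counting error, and most of all where few barcodes hold most UMIs. Ratios with a library at 0 use a floor of 3 counts. The ratio code was tested on simulated data. Thinning drew 1500 UMIs a barcode without replacement.

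The members and lists were chosen with earlier results of these data known. Named genes were the 10 highest and 10 lowest genes for each treatment over saline and 5 and 5 for CL over cold, by the interval bound nearer to 0, where the capillary level was at least 0.25 of the highest class; and in each list the 4 with most UMIs and the 4 with the largest ratio. Other list members named were chosen after their values were seen. Software was Python 3.11.15, NumPy 2.4.6, SciPy 1.17.1, scanpy 1.11.5 and edgeR 4.0.16 (TMM factors only).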

Additional observations from a re-analysis of the deposited data

Results flagged for a closer look

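Barcodes left out for mitochondrial UMIs above 15% were not used in any comparison, and some of them met the capillary marker rule more often in the treated libraries than in the saline library, which is why they are listed here. They were 14 of 181 such barcodes (7.73%, 4.29 to 12.6) in the cold library and 8 of 91 (8.79%, 3.87 to 16.6) in the CL library, against 5 of 120 (4.17%, 1.37 to 9.46) in the saline library. The 95% intervals of the 3 shares overlap, and no test was made.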

How the results depend on the processing

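No paired analysis was possible because each group had 1 library, so no replicate could be left out either. The interferon response median kept its direction under every alternative run, between 1.02 and 1.45 for CL over saline and 1.46 and 1.66 for CL over cold, and so did the immediate early median, between -1.17 (mean of barcode CPM) and -0.85 for cold over saline and -1.13 and -0.85 for CL over saline. The heat shock median lay between -0.93 and -0.64 for cold over saline, and the median of all genes moved by under 0.1. The log2 share ratios for cold over saline, CL over saline and CL over cold were 1.16, -0.68 and -1.84 with at most 5% mitochondrial UMIs and 1.11, -0.25 and -1.37 with at least 1000 genes. They were 0.36, 0.45 and 0.088 among endothelial barcodes, and the last turned round. CL over saline was 0.57 and CL over cold -0.36 among barcodes with Ptprc at 0, and thinning before the rule gave 1.02 for cold over saline and -0.90 for CL over cold. The antigen presentation median for CL over cold was 0.33 with at most 5% mitochondrial UMIs, 0.35 without barcodes holding other cells' markers, 0.35 as the mean of barcode CPM and 0.39 without each gene's 3 highest barcodes. Thinning the capillary barcodes, an alternative chosen after seeing the data, set the lipid handling median for CL over cold to -0.54. Genes past 2-fold higher and lower were 59 and 100 (cold over saline), 70 and 83 (CL over saline) and 61 and 29 (CL over cold) with at least 100 UMIs, fewer genes being compared. With at least 10 UMIs they were 724 and 819, 853 and 743, and 730 and 575. Thinned, 134 were higher for cold over saline, 137 higher and 158 lower for CL over saline, and 119 higher for CL over cold. Without each gene's 3 highest barcodes 459 were higher for cold over saline, 421 higher for CL over saline and 227 lower for CL over cold, and without barcodes with other cells' markers 112 were higher for CL over cold. Among gene ratios past 2-fold and list medians of at least 0.25 in size, those for CL over cold that turned round were H2-Ab1 (-0.13 without its 3 highest barcodes), the adhesion median (-0.022 without other cells' markers) and the G2/M median of 1 gene (-0.25 at the 5% limit and -0.41 without other cells' markers). Ccl2 turned round for cold over saline, to 1.46 with at most 10% mitochondrial UMIs. The cause was not tested. Of the single-gene ratios 3145 stayed within their counting error, 307 moved beyond it and 2 that were past 2-fold turned round; 8 with both libraries at or under 3 counts are not given.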

Other observations

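Cell cycle genes were scarce in the capillary barcodes. Of 16 S phase genes 6 could be compared. All 6 were lower for CL over saline (47.3% of all compared genes), with a median of -0.73. For cold over saline 3 were higher and 3 lower (50.4% and 49.6% of all). Of 16 G2/M genes only Hmgb2 could be compared. After thinning, the proliferation marker Mki67 was seen in 0 of 199 cold barcodes, where a count of 3 would be 1.51% of barcodes with a UMI and the exact 95% upper limit was 1.84%, and in 0.513% of CL and 1.81% of saline capillary barcodes, against 4.68% (cold), 3.81% (CL) and 1.75% (saline) of B cells.

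Arterial genes were mostly lower in the treated libraries. Of 16 compared, 12 were lower for cold over saline (49.6% of all compared genes), with a median of -0.22. For CL over saline 11 were lower (47.3% of all), with a median of -0.31. Sema3g, a guidance ligand of arterial endothelium, was at 253 (cold), 328 (CL) and 494 CPM (saline). The arterial and venous sums of thinned barcodes had Spearman correlations of -0.15 (cold), -0.04 (CL) and -0.24 (saline), given as a description. Of the 17 junction and glycocalyx genes compared, the median was -0.05 for cold over saline and 0.13 for CL over saline.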
